A study of Mus musculus with 2 samples.

Results

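Olfactory and vomeronasal receptor genes are described here as they appear in a Bcl3 chromatin map of mouse embryonic stem cells. The members are all genes in the authors' 2 annotation sheets whose names start with Olfr, Vmn1r, Vmn2r or V1r, and every peak listed for them was taken. The rule found 377 of the 9097 listed genes, namely 289 Olfr, 49 Vmn2r and 39 V1r genes, with no name starting with Vmn1r. They were listed for 64 of 1130 peaks (5.66%). They were chosen by name and not by the strength or distance of a peak, but a gene is listed only where the authors' annotation gave it to a called peak. The study held 1 library from an anti-Bcl3 immunoprecipitation (ChIP-Bcl3) and 1 library of input chromatin, both from CGR8 cells, an established mouse embryonic stem cell line. In both groups the cells grew on 0.1% gelatin with 15% serum replacement and leukemia inhibitory factor at 1000 U/ml, and no gene had been altered per the labels. Each group had 1 library, so there were no replicates and samples were not tested against each other. Every share below compares genes or peaks within the authors' peak list, and its exact 95% interval (Clopper-Pearson) covers counting error only. The read depth is unknown.

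Odorant receptors are G protein-coupled receptors of olfactory sensory neurons, and each mature neuron is known to express just 1 receptor allele. Vomeronasal receptors (V1r and Vmn2r) detect pheromones and related cues in the vomeronasal organ. Both kinds of gene lie in large tandem arrays with coding sequences that resemble each other closely, and the arrays are held in compact, silent chromatin in most other cell types. Bcl3, an IκB-like protein of the nucleus, is known to be brought to DNA by p50 and p52, which are NF-κB proteins. Expression was not measured in this series, so the silence of these genes in CGR8 cells rests on background knowledge alone.

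The gene starts used for receptors are mostly start codons. In 348 of the 377 receptor genes (92.3%) the listed model held coding sequence alone, against 252 of the 8720 other listed genes (2.89%). The listed models had a median span of 941 bp for Olfr genes and 932 bp for V1r genes, the size of 1 coding exon. Vmn2r models, which have several exons, had a median span of 23840 bp, and the other listed genes one of 19670.5 bp. The sequences below are shown because they hold starts of receptors that were the closest gene of a peak and whose start codon lies at or shortly after the start. They were chosen for that. Of 10 genes looked up, 8 were found, and Olfr834 and Olfr670 were not. Olfr49, Olfr872 and Vmn2r29 are not printed, although Olfr49 and 1 of 2 Vmn2r29 promoters also have a marked start codon. Each printed sequence runs 5′ to 3′ on the gene's strand, with 50 bases before and 50 bases from the start. The capitals mark the start codon of the coding sequence. They come from RefSeq promoters of build GRCm38.p6, whereas peak positions are in mm9.
Olfr984 (chr9:40101439-40101538, minus strand): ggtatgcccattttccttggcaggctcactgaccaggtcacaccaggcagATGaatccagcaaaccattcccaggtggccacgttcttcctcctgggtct
Olfr568 (chr7:102877072-102877171, plus strand): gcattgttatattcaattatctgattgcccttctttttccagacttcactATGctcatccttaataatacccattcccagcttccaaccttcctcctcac
Olfr1480 (chr19:13529625-13529724, plus strand): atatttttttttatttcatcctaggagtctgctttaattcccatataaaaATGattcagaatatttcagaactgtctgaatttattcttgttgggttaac
Olfr1198 (chr2:88746837-88746936, minus strand): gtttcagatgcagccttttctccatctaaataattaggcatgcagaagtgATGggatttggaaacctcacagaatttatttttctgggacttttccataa
Olfr732 (chr14:50282222-50282321, minus strand): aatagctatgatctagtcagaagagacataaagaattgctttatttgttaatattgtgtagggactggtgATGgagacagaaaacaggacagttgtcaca

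In Olfr984, Olfr568, Olfr1480 and Olfr1198 the start codon is the base at which the model begins. In Olfr732 it begins at base 21 of the model, and in Olfr49 at base 33. In Olfr872 and the first of 2 Vmn2r29 promoters no start codon was marked, and in the second Vmn2r29 promoter it is at base 1. Of 324 RefSeq promoters found for 320 listed receptor genes, 237 (73.1%, interval 68.0 to 77.9%) had ATG at the first base of the model, against 944 of the 31577 promoters of non-receptor genes (2.99%). A distance from a receptor start is therefore mostly a distance from a start codon, and the transcription start of the same gene may lie elsewhere.

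Bcl3 peaks close to a receptor start were few. A listed peak lay within 5 kb of the start for 7 of 377 receptor genes (1.86%, interval 0.750 to 3.79%) and for 329 of 8720 other listed genes (3.77%, 3.38 to 4.19%). Over all listed genes the share was 3.69%, which lies inside the receptor interval. Within 1 kb it was 3 of 377 receptor genes (0.796%, 0.164 to 2.31%) and 217 of 8720 other genes (2.49%, 2.17 to 2.84%), with 2.42% over all listed genes. Within 50 kb it was 61 of 377 receptor genes (16.2%, 12.6 to 20.3%) and 1349 of 8720 other genes (15.5%, 14.7 to 16.2%), with 15.5% over all listed genes. The receptor share thus lay below the share of all listed genes at 1 kb and 5 kb, and near it at 50 kb. These shares count listed genes alone. The wider annotation reached a median of 400.5 kb at peaks inside receptor arrays and 505.5 kb at all peaks listing a receptor. At peaks that list no receptor it reached 893.9 kb. A shorter reach leaves distant genes unlisted, which can raise the share of listed genes near a peak. The effect on the receptor shares was not tested. No test was made of the differences in share, since neighbouring genes share peaks. The 61 receptor genes had 24 peaks between them (2.54 genes per peak), and the 1349 other genes had 621 (2.17 genes per peak).

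**Figure D1:**
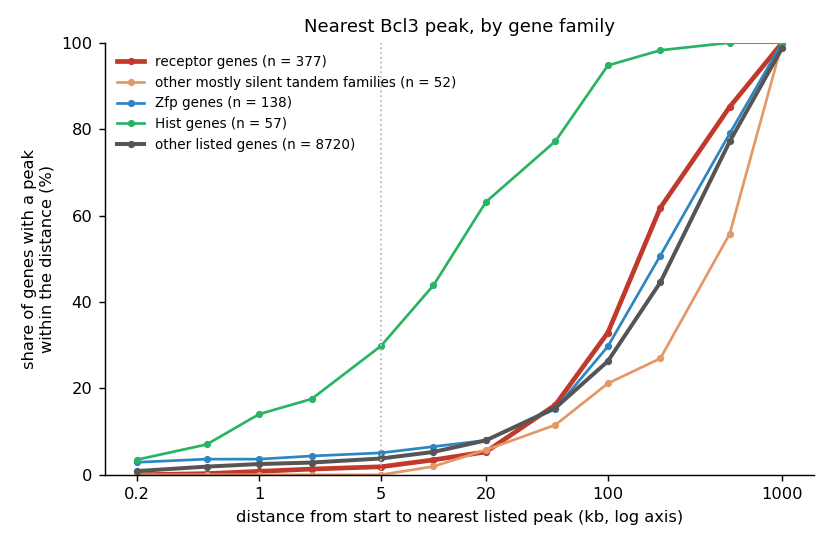
Share of genes (vertical axis, %) with a listed Bcl3 peak within a given distance of the start (horizontal axis, kb, log scale), for receptor genes and 4 other sets, with the number of genes in the legend and a dotted line at 5 kb. Receptor genes reached 1.86% at 5 kb and 16.2% at 50 kb, against 3.77% and 15.5% of the other listed genes, and Hist genes lay above the other sets from 1 to 100 kb.

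The 7 genes are Olfr984, Vmn2r29, Olfr568, Olfr49, Olfr834, Olfr1480 and Olfr1198, each at a peak of its own. Fold enrichment below is the authors' greatest log2 fold change within the peak, and q is the authors' false discovery rate of the peak. The peak nearest to any receptor start lay on chromosome 9, 39908750 to 39908974 in mm9, inside the only exon of Olfr984, 210 bp downstream of the start. Its log2 fold enrichment was 2.77 (6.82-fold), with q = 0.402. The Vmn2r29 peak (chromosome 7, 7230400 to 7230524) lay 537 bp downstream of the start in intron 1 of a model with 7 exons, at 2.55 with q = 0.592. Vmn2r29 was named in the closest-transcript sheet alone, and its RefSeq class is protein coding. The Olfr568 peak (chromosome 7, 110026175 to 110026274) also lay in the only exon, 589 bp from the start, at 2.75 with q = 0.414. These 3 peaks are the 3 within 1 kb, and all 3 lay inside the gene.

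The strongest of the 7 belonged to Olfr49. Its peak (chromosome 14, 54903600 to 54903899) lay 1150 bp upstream of the transcript start, at a log2 fold enrichment of 3.41 (10.6-fold), and was the one peak of the 7 with the lowest q of the list, 0.179. The Olfr834 peak (chromosome 9, 18793725 to 18793899) lay 1379 bp downstream of the start, 441 bp past the end of the gene, at 2.91 with q = 0.313. The Olfr1480 peak (chromosome 19, 13607000 to 13607199) lay 2935 bp downstream of the start and 1988 bp past the gene's end, at 2.85 with q = 0.347. The Olfr1198 peak (chromosome 2, 88590250 to 88590599) lay 3382 bp upstream, at 3.18 with q = 0.207. Olfr1198 was the farthest inside 5 kb, and Olfr670 the nearest outside it, with a peak 5169 bp upstream. Of the 7, 5 had their peak downstream of the start and 2 upstream (71.4% downstream, 29.0 to 96.3%). Among the other genes, 186 of 329 were downstream (56.5%, 51.0 to 62.0%).

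Receptors were the closest gene of 11 peaks. The closest-transcript sheet named a gene for 623 peaks, so receptors made up 1.77% of them (0.880 to 3.14%). Beside the 7 genes above they were Olfr670, Olfr732, Olfr872 and Vmn2r90. The Olfr670 peak (chromosome 7, 112114225 to 112114599) had a log2 fold enrichment of 3.23 with q = 0.187. The Olfr732 peak (chromosome 14, 50908425 to 50908674) lay 6604 bp upstream, at 3.10 with q = 0.241. The Vmn2r90 peak (chromosome 17, 17876750 to 17876849) lay 5669 bp past the gene's end, at 2.55 with q = 0.592. The Olfr872 peak (chromosome 9, 20054450 to 20054549) held the lowest fold enrichment of the whole list, 2.48, with q = 0.619. It lay in intron 1 of the closest transcript, 12.9 kb downstream of that start. The wider annotation gave Olfr872 a model of the coding exon alone, and the same peak then lay 9870 bp upstream. For this gene the place of the peak depended on the gene model. The other 9 closest receptors with a distance in both sheets kept their side of the start.

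Most peaks listing a receptor were not next to one. A peak was called inside an array when the nearest listed genes on both sides were receptors and no other gene spanned it, and at an edge when a receptor was the neighbour on 1 side or spanned the peak. By this description, 14 peaks lay inside an array, 11 at an edge, and 39 had other genes as both neighbours. The 14 peaks inside arrays lay on 6 chromosomes, and their nearest receptor start was 210 bp to 49.3 kb away (median 8.2 kb). Among them, 5 lay within 5 kb of a receptor start (35.7%, 12.8 to 64.9%). The 39 peaks with other neighbours listed 1 to 9 receptors each, with the nearest receptor start a median of 214.9 kb away.

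**Figure D2:**
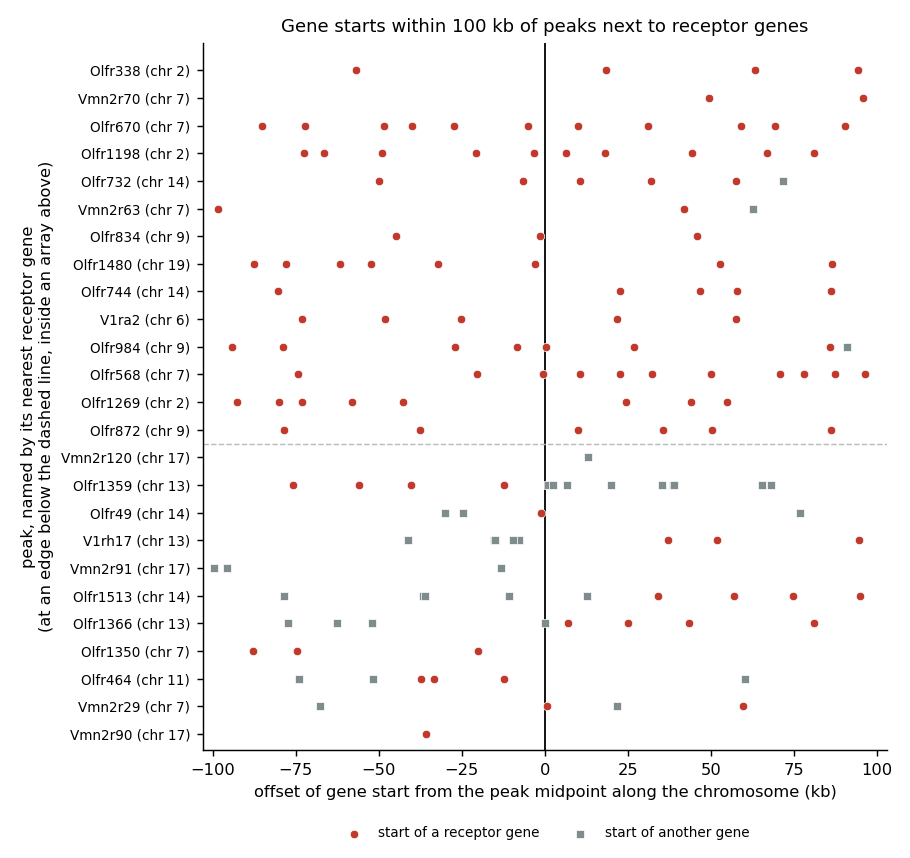
Offsets of gene starts from the peak midpoint (horizontal axis, kb along the chromosome, up to 100 kb) for the 14 peaks inside receptor arrays and the 11 at an edge, 1 row a peak, named by its nearest receptor. Red circles are receptor starts and grey squares starts of other genes. Inside arrays the vertical line at the peak runs mostly between receptor starts, with 5 peaks within 5 kb of one.

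Over the 64 peaks, starts of other genes were met more often than receptor starts. A start of any gene lay within 5 kb of 24 of the 64 peaks (37.5%, 25.7 to 50.5%), and it was a receptor start at 7 and a start of another gene at 17. Among the 1066 peaks that list no receptor, 257 had a start within 5 kb (24.1%, 21.6 to 26.8%), and over all 1130 peaks the share was 24.9%. The 64 peaks had a median of 20 listed genes and the others 12. The part of gene density in the difference was not tested. Histone genes, which lie between and beside the receptor genes of chromosome 13, supplied 4 of the 17 starts. The peak of highest fold enrichment within 50 kb of a receptor start (3.58, q = 0.179; chromosome 13, 21806850 to 21807524) lay 824 bp from the start of Hist1h2bl, an H2B histone gene, and 12.3 kb from Olfr1359. A peak 30 bp from the start of Zfp192, a zinc finger gene, lay 6877 bp from Olfr1366 (2.79, q = 0.386). A peak 248 bp from the start of Sall2, which encodes a zinc finger transcription factor, lay 34.0 kb from Olfr1513 (3.02, q = 0.277). The 248 bp rests on the closest-transcript model of Sall2. The model of the wider annotation starts 12.6 kb from the same peak, so its place among the 17 depends on the model. Peaks at Hist1h1b (123 bp), Hist1h4h (31 bp), Hist1h3i (528 bp) and Pafah1b1 (248 bp), a dynein regulator gene, had their nearest receptor start at 77.4, 298.0, 79.9 and 359.5 kb, in that order.

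Grouped by position, the members formed 39 clusters on 17 chromosomes when a cluster ended at a gap of over 1 Mb between listed starts. There were 21 clusters of 5 or more genes, which held 339 members, and 8 clusters of 1 gene. A peak within 5 kb of a start occurred in 7 of the 39 clusters and a peak within 50 kb in 16. The extent of a cluster here is that of its listed members, not of the whole array. Below, an array given with a range in Mb is such a cluster, and other genes can lie within it. Among RefSeq protein-coding genes, 373 of 1467 receptors (25.4%) were listed for a peak, against 8506 of 20433 other genes (41.6%). These 373 are not exactly the members, of which 369 are protein coding in RefSeq. The wider annotation stopped at 11 genes on 1 side of a peak and 10 on the other. Its farthest start was a median of 400.5 kb away for peaks inside arrays, against 893.9 kb for peaks that list no receptor, so it reached less far where genes were dense. The median distance from a start to its nearest listed peak, 153.2 kb for receptors and 233.6 kb for other genes, shares this limit. So do the shares of listed genes within each window.

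Chromosome 7 held the most members, 90 with 10 peaks. Its arrays at 109.8 to 110.2 Mb (20 members, 1 peak) and 111.8 to 112.5 Mb (25 members, 2 peaks) contain Olfr568 and Olfr670, and 6 members of each had a peak within 50 kb. This region is known as the home of class I receptors, the type related to those of fish. The peak at Olfr568 had 20 receptors among its 21 listed genes, and after Olfr568 itself the nearest were Olfr569 (10.4 kb), Olfr566 (20.4 kb), Olfr570 (22.7 kb), Olfr571 (32.1 kb) and Olfr572 (49.9 kb). The Olfr670 peak had 18 of 20, with Olfr671 (10.1 kb), Olfr669 (27.4 kb), Olfr672 (31.0 kb), Olfr668 (40.1 kb) and Olfr667 (48.6 kb) next in distance. Both peaks thus sat among receptor starts on both sides. At 6.4 to 7.9 Mb, 8 Olfr and 8 Vmn2r genes had 2 peaks, and beside Vmn2r29 the nearest was Olfr1350 at 20.1 kb (2.70, q = 0.463). At 49.3 to 50.3 Mb, 6 Vmn2r genes had 1 peak, 41.9 kb from Vmn2r63 (2.98, q = 0.296). At 92.0 to 93.5 Mb, 12 Vmn2r and 5 Olfr genes had 1 peak, 49.3 kb from Vmn2r70 (3.24, q = 0.185).

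Chromosome 2 had 58 members and 4 peaks. The array at 88.3 to 90.1 Mb held 38 Olfr genes, 9 of them within 50 kb of its 2 peaks. All 20 genes listed for the peak next to Olfr1198 were receptors, and its start and that of Olfr1199, 6405 bp away on the other side, were the nearest. Olfr1200 (18.0 kb), Olfr1197 (20.7 kb), Olfr1201 (44.1 kb) and Olfr1196 (48.9 kb) followed. The other peak of the array lay 24.5 kb from Olfr1269 (2.62, q = 0.529), with Olfr140 and Olfr32 at 42.8 and 44.0 kb. The array at 36.2 to 37.2 Mb had 20 Olfr genes and a peak 18.5 kb from Olfr338 (3.30, q = 0.179). This was the highest fold enrichment among the 14 peaks with receptors as both neighbours. Chromosome 9 had 43 members and 4 peaks. In its array at 18.6 to 20.1 Mb, 6 of 30 Olfr genes had a peak within 50 kb, and in that at 39.7 to 40.0 Mb, 4 of 13, namely Olfr984, Olfr983 (8314 bp), Olfr985 (26.7 kb) and Olfr982 (27.0 kb), all at 1 peak. The 6 in the first array were Olfr834, Olfr832 (44.7 kb) and Olfr835 (45.8 kb) at one peak, and Olfr872, Olfr39 (35.6 kb) and Olfr871 (37.7 kb) at the other.

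Chromosome 14 had 36 members and 7 peaks, and 9 of the 35 Olfr genes at 50.5 to 53.1 Mb lay within 50 kb of a peak. They were Olfr732, Olfr733 (10.4 kb), Olfr734 (32.0 kb) and Olfr731 (49992 bp) at one peak, Olfr744 (22.7 kb) and Olfr745 (46.8 kb) at another, Olfr1513, and the locus listed as both Olfr1514 and Olfr221 (21.1 kb). Olfr1328 and Olfr1519 on chromosome 4 likewise shared 1 locus. The chromosome 13 array (21.2 to 23.3 Mb) held 10 Olfr and 14 V1r genes with 6 peaks, the nearest of them at Olfr1366, followed there by Olfr1365 (24.9 kb) and Olfr1364 (43.4 kb). The Olfr1359 peak also had Olfr1360 at 40.3 kb, and V1rh17 lay 36.9 kb from a peak beside Hist1h2bj (3.33, q = 0.179). Olfr1359 had the most peaks of all members, 4, and 16 members had 3, of which 9 form the small Olfr1328 array of chromosome 4. Olfr1359 was placed at 2 positions on opposite strands, from 1 RefSeq transcript, 12.3 and 40.4 kb from the same peak. Olfr1506 on chromosome 2 was also placed at 2 positions. How reads that fit several copies were treated is not given in the sources used here, so values at such near-identical genes are uncertain.

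**Figure D3:**
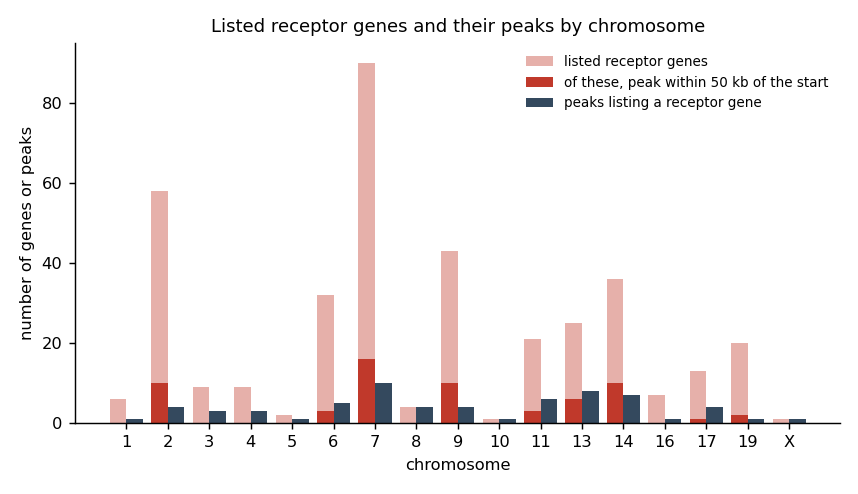
Number of listed receptor genes (light bars), of those with a peak within 50 kb of the start (red part of the same bars) and of peaks listing a receptor gene (dark bars), by chromosome. Chromosome 7 had 90 members and 10 peaks, chromosome 2 had 58 and 4, and the other chromosomes had 43 members or fewer.

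On chromosome 19, 20 Olfr genes at 13.4 to 13.9 Mb had the Olfr1480 peak alone, and Olfr1477, at 32.1 kb, was the other member within 50 kb. On chromosome 11, a peak 12.3 kb from Olfr464 (2.65, q = 0.507) had the highest −log10 Poisson score of all 64, 9.87, and Olfr463 and Olfr462 followed at 33.3 and 37.3 kb. The V1ra and V1rb genes of chromosome 6 (16 members at 89.7 to 90.2 Mb) belong to an array whose deletion is known to alter pheromone responses in mice. They had 1 peak, between V1rb4 at 25.4 kb and V1ra2 at 21.8 kb (2.77, q = 0.402), with V1ra5 at 48.2 kb. The V1rc genes at 56.9 to 57.1 Mb had their nearest peak 749.4 kb away. On chromosome 17, 9 Vmn2r genes had the Vmn2r90 peak and another 101.4 kb from Vmn2r91 (3.13, q = 0.236). The nearest start to this second peak was that of Fprl1, a formyl peptide receptor gene, at 13.2 kb. In the arrays of chromosomes 1, 3, 4 and 16, the nearest peaks lay 596.7 kb (Olfr414), 152.3 kb (Vmn2r1), 77.0 kb (Olfr1328) and 483.8 kb (Olfr171) away. The Olfr412 array of chromosome 11 and the Olfr47 array of chromosome 6 had theirs at 359.5 and 771.0 kb.

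The share near a peak was also counted by family, with no test of the difference. Within 50 kb of a peak lay the starts of 53 of 289 Olfr genes (18.3%, 14.0 to 23.3%), 4 of 39 V1r genes (10.3%, 2.87 to 24.2%) and 4 of 49 Vmn2r genes (8.16%, 2.27 to 19.6%), and the intervals overlapped. Within 5 kb there were 6 Olfr genes, 1 Vmn2r gene and 0 of 39 V1r genes. The exact upper limit of the V1r share was 9.025% (floor of 3 counts, 7.69%).

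The enrichment of peaks listing receptors overlapped that of the others. The 64 peaks had a median log2 fold enrichment of 2.87 (range 2.48 to 3.62), and the 1066 others 2.94 (2.48 to 4.02). The median was 2.88 for the 14 peaks inside arrays, 3.02 for the 11 at an edge and 2.85 for the 39 with other neighbours. The lowest q of the list, 0.179, was held by 10 of the 64 peaks (15.6%, 7.76 to 26.9%) and by 228 of the 1066 others (21.4%, 19.0 to 24.0%). Inside arrays only the Olfr338 peak had it. The median −log10 Poisson score was 5.71 for the 64 peaks and 5.81 for the others, and the median length was 212.5 and 200 bp. Median q was 0.341 for the 64 peaks and 0.296 for the others, and false discovery rates of this size leave each peak uncertain in both sets.

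**Figure D4:**
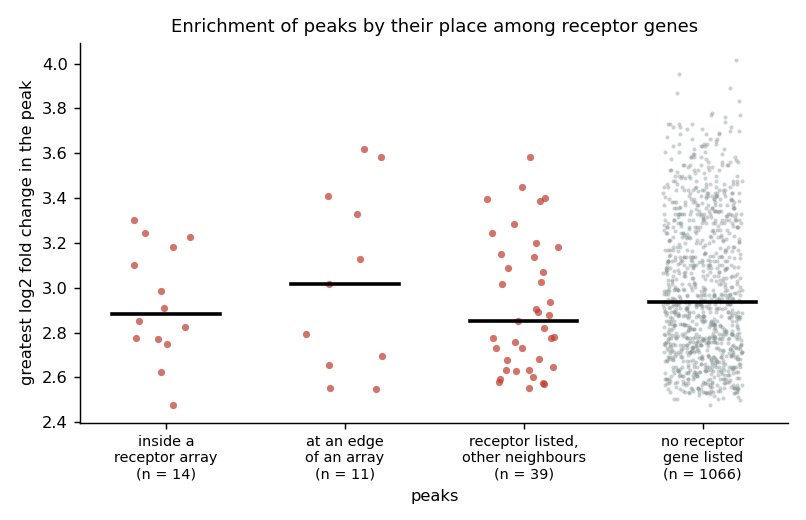
Greatest log2 fold change of each peak (vertical axis, the authors' values) for peaks inside a receptor array, at an edge, with a receptor listed but other neighbours, and with no receptor listed, 1 point a peak, and a black bar at the median. Medians were 2.88, 3.02, 2.85 and 2.94, and the groups overlapped.

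Sets of other genes gave further points of reference. Other tandem families that are mostly silent outside 1 tissue (taste, formyl peptide, Ly49, hair keratin-associated, urinary protein and secretoglobin genes) held 52 listed genes. Of these, 0 had a peak within 5 kb (exact upper limit 6.85%, floor of 3 counts 5.77%) and 6 within 50 kb (11.5%, 4.35 to 23.4%). The nearest was Krtap5-5 at 7.9 kb (3.29, q = 0.183). Of 138 Zfp genes, 7 had a peak within 5 kb (5.07%, 2.06 to 10.2%), and of 57 Hist genes, which are active in dividing cells, 17 had one (29.8%, 18.4 to 43.4%). Of 252 other genes whose models hold coding sequence alone, as receptor models do, 10 had a peak within 5 kb (3.97%, 1.92 to 7.18%), against 5 of 348 such receptor genes (1.44%, 0.468 to 3.32%). Any Hist genes among the 252 were kept, and their part in this share was not tested.

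Genes that serve the receptors were also looked up. From the olfactory transduction and receptor choice list, 15 of 27 genes were listed and 1 had a peak within 5 kb, Atf5, a transcription factor gene of the unfolded protein response that receptor expression engages (196 bp upstream, 2.52, q = 0.607). Ebf4, of a family of factors that bind olfactory promoters, followed at 20.5 kb (3.40, q = 0.179), and Ldb1, which joins distant receptor enhancers, at 48.1 kb (2.66, q = 0.486). The adenylyl cyclase gene Adcy3 and the olfactory G protein gene Gnal were 350.8 and 126.6 kb from their nearest listed peaks. From the vomeronasal list, 4 of 9 genes were listed, and Gnai2, the G protein subunit of V1r neurons that many cell types also use, had a peak 4498 bp downstream of its start (2.87, q = 0.336). The channel gene Trpc2 lay 197.2 kb from its nearest peak. The olfactory count within 5 kb was 1 of 15 (interval 0.169 to 31.9%) and the vomeronasal count 1 of 4 (0.631 to 80.6%). Both intervals hold the share of all listed genes, 3.69%. Within 50 kb, 3 of 15 olfactory genes had a peak (4.33 to 48.1%), against 15.5% of all listed genes. These counts thus do not set either list apart from all listed genes.

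κB-like letters were counted in the sequence around receptor starts. A pattern of GGG, any 5 bases and CC, of the kind that p50 and p52 bind, was searched on both strands of the RefSeq promoter windows (250 bases before to 50 after the start). It occurred in 37 of 324 windows of listed receptors (11.4%, 8.17 to 15.4%), in 16522 of 31577 windows of other genes (52.3%, 51.8 to 52.9%) and in 50.8% of all windows. Median GC content was 36.5% in the receptor windows and 53.3% in those of other genes. The part of base composition in the difference was not tested. Olfr984 had 2 such matches and Olfr49 had 1, whereas Olfr568, Olfr1480, Olfr1198, Olfr732 and Olfr872 had 0. Of the 2 promoters of Vmn2r29, the first had 2 matches and the second had 0. By the listed starts, the peaks of these genes lay outside such windows. The sequences of the peaks themselves were not searched, so these counts do not describe them. The homeodomain core TAATTA, known from receptor promoters, occurred in 64 receptor windows (19.8%, 15.6 to 24.5%), in 4.84% of those of other genes and in 5.29% of all. An Ebf-like pattern of TCCC, any 2 bases and GGGA occurred in 0 receptor windows (exact upper limit 1.13%, floor 0.926%). It occurred in 0.920% of those of other genes and in 0.900% of all. Matches of different patterns can overlap, and a match describes letters, not a bound site.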

How the data were processed

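Chromatin was measured by ChIP-seq in 1 Bcl3 ChIP library, with 1 input library that was not analysed here on its own. Peaks are the authors' calls, placed on mm9 (build per the submitters' processing notes). For the alignment, the peak calling and reads with several positions, tools and settings were not given in the sources used here. By the file headers, each deposited peak carries a false discovery rate (q-value), a greatest log2 fold change with no named denominator, a greatest T score (not used further) and the −log10 of its smallest Poisson p-value.

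Distances were recomputed from peak midpoints to the starts in both deposited annotation sheets and equalled the deposited ones in the wider sheet. A gene took its nearest peak. Floors are 3 counts of the total. The distance counting was tested on simulated data. Members and lists were chosen with earlier results of these data known. Genes named were those with a peak within 50 kb, in the closest-transcript sheet, or nearest in a cluster of 5 or more. Named too were members with the most peaks (the 16 tied at 3 are given as a count) and, from the lists of related genes, those nearest a peak or best known. Names were matched to RefSeq (GRCm38.p6) for 374 of 377 members. Intervals came from scipy 1.17.1. Alternatives were peak subsets, name subsets, merged peaks, other windows and gaps, and, added after the data were seen, other distances.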

Additional observations from a re-analysis of the deposited data

How the results depend on the processing

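No paired analysis was possible because each group had 1 library. Against peaks or genes kept whole, 58 of 79 recomputed values stayed within the main interval, the quartiles, or 1.5 times the main count. Some of these could not move. The name subsets filter receptors alone, so their values for other genes were the main ones by construction. With the 238 peaks of the lowest q, 10 peaks listed a receptor, 1 had one as its closest gene, their median log2 fold enrichment was 3.41, and 14.3% of other genes lay within 50 kb. With the 568 peaks of greater fold enrichment these were 28, 4, 3.21 and 14.4%, and 1.16% of receptors (2 of 172) and 3.37% of other genes lay within 5 kb. At the lowest q, 1 of 44 receptors (2.27%) lay within 5 kb. With the 565 peaks of greater Poisson score 2 of 187 did (1.07%), 31 peaks listed a receptor, 4 had one as closest gene, and 12.3% of receptor and 14.1% of other genes lay within 50 kb. Among Vmn2r and V1r names alone, 16 peaks were listed, 2 were closest, and 9.09% of the genes lay within 50 kb. For other genes, the 5 kb share was 2.49% in a 1 kb window and 5.29% in a 10 kb window. By distance to the gene body it was 2.12% for receptors and 7.88% for other genes. That distance is 0 for a peak anywhere in the model, and median spans were 944 bp for receptors and 19670.5 bp for other genes. With the wider annotation alone the 5 kb share was 1.60% for receptors and 3.17% for other genes, whose 50 kb share was 14.5%. The gene-body and wider-annotation settings were chosen after seeing the data, as was measuring from the summit. The number of clusters was 44 with a gap of 0.5 Mb and 34 with 2 Mb. The lower counts follow from using fewer peaks or genes. The subsets of lowest q and of greater fold keep the peaks of higher fold enrichment, so their higher medians follow from the choice. Shares in a 1 kb or 10 kb window follow from the window. A share by gene body cannot be lower than the share by start. For the other moved values the cause was not tested. The closest-transcript sheet adds genes because a peak is near. With read depth unknown, a receptor gene with no peak cannot be told apart from one with too few reads.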
